A study of Mus musculus with 16 samples.

Results

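A set of genes of the Hedgehog signalling pathway and of the floor plate was followed in mouse embryonic stem (ES) cells and in the embryoid bodies made from them, with and without a functional Taf4a gene. The 9 genes were Shh, Smo, Ptch1, Gli1, Gli2, Gli3, Hhip, Foxa2 and Nkx2-2, of 27807 genes in the expression table. They were chosen by gene name with earlier results of these data known over all 8 groups. Their differences between groups are therefore given as values with their errors, without p-values, and the number past a threshold is given as a description only. Other genes of the pathway were tested one by one in a fit across all genes. Their lists were also drawn up with earlier results known, so that the counts over a list are not independent support.

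Polyadenylated RNA was sequenced from 16 libraries, 2 for each of 8 groups. A group was a genotype, WT (Taf4a+/+) or KO (Taf4a-/-, homozygous for a null allele), at the ES stage or at one of 3 stages of embryoid bodies, named EB4, EB5 and EB8. Embryoid bodies are floating aggregates of differentiating cells, here collected before retinoic acid was given (EB4), a day into the treatment (EB5) and later in it (EB8), in a protocol that leads to neurons. The Taf4a protein is part of TFIID, the general transcription factor that places the TATA-binding protein on promoters. Both genotypes went through the same culture, the ES cells grew on inactivated fibroblast feeders, and the WT and KO cells each came from 2 independent lines, without labels tying a library to a line.

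Sequencing depth ran from 22442118 to 40711826 reads per library. Values are normalised read counts, gene reads scaled by a factor for each library. Log2 changes are on the log2(normalised count + 1) scale, which understates the change of genes near 0, and are followed by the standard error (SE) of a linear model fitted to all 16 libraries with limma. The Taf4a row could not serve as a check of the labels, since any RNA from the null allele is counted at gene level: it held 1751.6 to 1857.7 normalised counts in the WT ES libraries and 2387.9 to 2400.0 in the KO ES libraries.

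Hedgehog ligands bind the membrane protein Ptch1, which in the absence of ligand holds the transducer Smo inactive. Active Smo, acting at the primary cilium, changes the processing of the Gli zinc-finger factors, of which Gli2 is the main activator, Gli3 mostly a repressor, and Gli1 an activator that is itself a target. In the ventral neural tube, Shh from the notochord and the floor plate patterns progenitors by dose, and Foxa2 and Nkx2-2 mark the most ventral fates.

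Promoter sequences from RefSeq (build GRCm38.p6, 250 bases before to 50 after a start site) were matched for 7 of the 9 genes, in 9 windows. Shh and Gli1 were not matched. The windows held 51.7% to 76.3% G and C, against a median of 52.7% over 32851 windows of all genes. On either strand, none of the 9 windows held the Gli motif GACCACCCA (found in 0.253% of all windows), its core CCACCCA (9.3%), which lies within the longer motif, or the Foxa motif TGTTTAC (3.65%). The TATA box letters TATAAA were present in 1 of the 9 windows, against 13.6% of all windows. These are matches of letters and not binding sites. The 250 bases before the start are shown for Smo, the member whose KO libraries lay below its WT libraries at all 4 stages, and for the Foxa2 start whose window held the match. They run 5′ to 3′ on the strand of the gene, and capitals mark the TATAAA match, here on the opposite strand and with its first base 208 bases before the start.
Smo, chr6:29735247-29735496, forward strand: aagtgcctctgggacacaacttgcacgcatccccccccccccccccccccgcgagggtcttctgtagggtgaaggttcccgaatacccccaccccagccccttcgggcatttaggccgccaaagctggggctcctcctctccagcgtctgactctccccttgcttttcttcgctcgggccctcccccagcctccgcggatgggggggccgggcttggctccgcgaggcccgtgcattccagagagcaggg
Foxa2, chr2:148045465-148045714, reverse strand: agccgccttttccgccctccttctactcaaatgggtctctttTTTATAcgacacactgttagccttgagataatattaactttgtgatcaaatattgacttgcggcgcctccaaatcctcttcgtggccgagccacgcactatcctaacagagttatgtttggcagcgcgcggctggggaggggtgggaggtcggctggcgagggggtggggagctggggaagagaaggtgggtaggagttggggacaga

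All 9 genes are annotated as protein-coding (GENCODE M1 on NCBI37, the mm9 build, used for gene positions). The 9 genes followed different courses in the 2 genotypes, and at EB8 each KO library was below each WT library for every one of them.

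**Figure D1:**
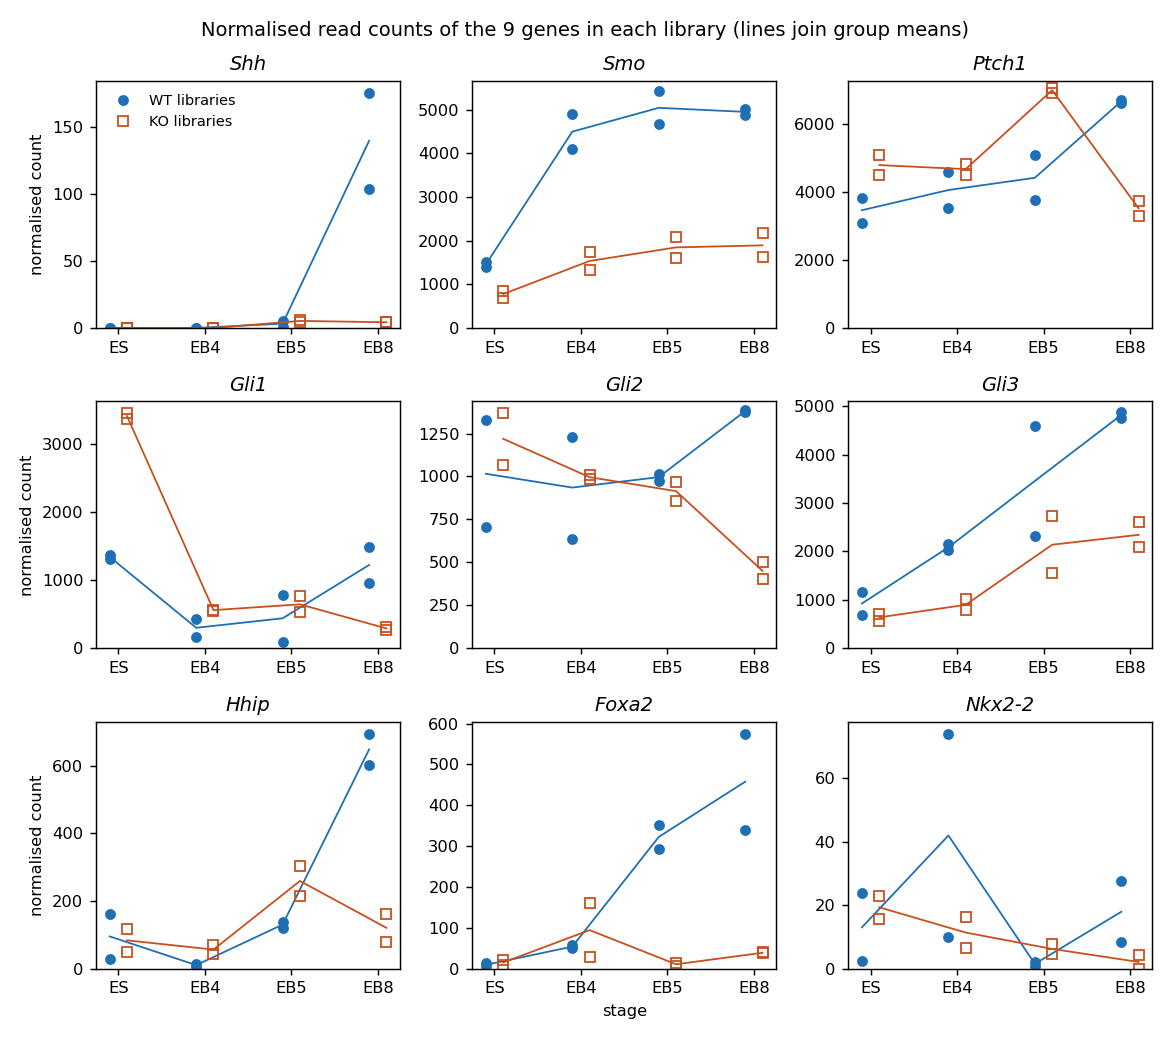
Normalised read count (vertical axes, linear, from 0) of each of the 9 genes at the 4 stages, with filled circles for the WT libraries, open squares for the KO libraries and lines joining the means of 2 libraries. The KO squares lie below the WT circles for all 9 genes at EB8, for Smo at every stage, and above the WT circles for Gli1 at ES.

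Shh, the ligand (ENSMUSG00000002633, chr5:28783355-28793641, reverse strand), was at 0 normalised counts in all 8 libraries of the ES and EB4 stages. At EB5 it held 0.9 and 5.5 normalised counts in WT versus 4.7 and 5.8 in KO, with the groups overlapping. At EB8 the WT libraries reached 104.0 and 175.8 normalised counts, while the KO libraries stayed at 4.2 and 4.3, which were 4 reads each. WT EB8 was thus at least 43-fold higher than WT EB4, taking 3 reads as the floor. The KO minus WT log2 change at EB8 was -4.70 ± 0.70 (SE, n = 2 and 2). In these bulk samples, fewer cells that express a gene and less RNA per cell cannot be told apart. Exons of Shh overlap opposite-strand noncoding genes, and a preparation without strand marking cannot separate the reads. How shared reads were assigned is not known, and the part of the overlap in the Shh values was not tested. The 2 overlapping genes found in the table held at most 9.5 normalised counts in any library.

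Smo, the transducer (ENSMUSG00000001761, chr6:29685694-29711365, forward strand), was lower in KO before and during differentiation. At ES it stood at 1515.4 and 1393.7 normalised counts in WT versus 692.3 and 856.9 in KO. At EB4 the values were 4097.8 and 4890.7 in WT versus 1746.5 and 1319.5 in KO. The level in both genotypes was higher at EB4 than at ES, by 1.62 ± 0.21 on the log2 scale in WT and 0.98 ± 0.21 in KO. At EB5 the libraries held 4663.6 and 5417.1 normalised counts in WT versus 2084.9 and 1603.9 in KO. At EB8 they held 4872.5 and 5020.7 in WT versus 1614.2 and 2167.8 in KO. The KO libraries never overlapped the WT libraries, and the ratio of KO to WT means was 0.533 at ES, 0.341 at EB4, 0.366 at EB5 and 0.382 at EB8. The log2 changes were -0.92, -1.56, -1.46 and -1.40 in that order, each ± 0.21 (SE).

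Ptch1, the receptor and a target of the pathway (ENSMUSG00000021466, chr13:63610261-63674474, reverse strand), moved in opposite directions in the 2 genotypes late in the course. It held 3090.0 and 3836.5 normalised counts in WT ES versus 4491.1 and 5090.2 in KO ES, and overlapped between genotypes at EB4, where WT had 4597.6 and 3517.1 and KO 4834.2 and 4508.6. At EB5 both KO libraries, at 6925.9 and 7065.1, were above the WT libraries, at 5080.4 and 3754.5. At EB8 the order was the reverse, with 6708.1 and 6629.0 in WT against 3741.3 and 3296.9 in KO. The KO minus WT log2 change went from 0.68 ± 0.18 at EB5 to -0.92 ± 0.18 at EB8, and within KO the level at EB8 was 0.503 times that at EB5. Per kilobase of exon, the ratio of Smo to Ptch1 within a library was 0.632 to 2.51 over the 8 WT libraries and 0.268 to 1.14 over the 8 KO libraries. At each stage both KO ratios were below both WT ratios.

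**Figure D2:**
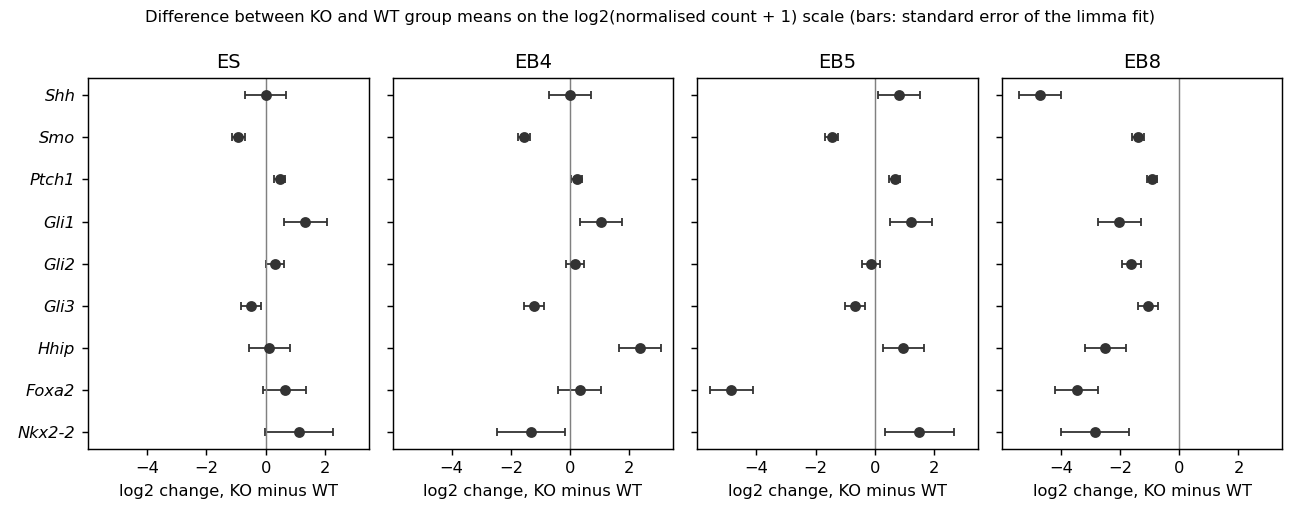
KO minus WT difference of group means on the log2(normalised count + 1) scale (horizontal axes) for the 9 genes at each stage, with bars of 1 SE from the limma fit, n = 2 libraries a group. The points lie on both sides of 0 at ES, EB4 and EB5, and all 9 lie below 0 at EB8, from -0.92 for Ptch1 to -4.70 for Shh.

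Gli1, the activator that serves as a readout of the pathway (ENSMUSG00000025407, chr10:126766945-126778645, reverse strand), was more abundant in KO ES cells, at 3464.2 and 3371.3 normalised counts, than in WT ES cells, at 1378.0 and 1312.3. It was lower at EB4 in both genotypes, at 436.2 and 169.4 in WT versus 554.9 and 570.4 in KO. The WT libraries at EB5 stood far apart, at 792.3 and 92.2, and the KO libraries, at 530.9 and 765.1, lay between them. At EB8 the WT libraries held 1498.5 and 955.0 and the KO libraries 273.3 and 313.2. The log2 changes were 1.35, 1.05, 1.23 and -2.03 from ES to EB8, each ± 0.72 (SE), and the large error comes from the spread between replicates over the 8 groups. Leaving out the second WT library turned the EB5 change to -0.31. Exons of Gli1 overlap Arhgap9 on the opposite strand, which held 23.1 and 43.4 normalised counts in WT EB8 versus 298.6 and 151.3 in KO EB8, opposite in direction to Gli1.

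Gli2, the main activator (ENSMUSG00000048402, chr1:120730709-120950196, reverse strand), overlapped between genotypes at ES and EB4. It held 705.4 and 1325.9 normalised counts in WT ES versus 1372.2 and 1066.4 in KO ES. At EB4 it held 1231.9 and 639.1 in WT versus 1009.4 and 982.6 in KO, and at EB5 975.8 and 1016.9 in WT versus 859.9 and 969.7 in KO, where the KO values lay just under the WT values. At EB8 the WT libraries held 1387.2 and 1374.3 and the KO libraries 402.0 and 499.6, a log2 difference of -1.62 ± 0.32 (SE).

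Gli3, mostly a repressor (ENSMUSG00000021318, chr13:15555068-15821859, forward strand), was highest at EB8 in WT and was lower in KO at EB4 and EB8, and its KO values at EB5 and EB8 overlapped. At ES, 1161.4 and 691.2 normalised counts in WT overlapped 705.6 and 574.6 in KO. At EB4 the WT libraries, at 2022.1 and 2148.9, were above the KO libraries, at 1011.7 and 786.1. At EB5 the groups overlapped, with 2322.4 and 4588.0 in WT versus 2727.7 and 1551.5 in KO, and at EB8 they separated again, with 4756.0 and 4881.0 in WT versus 2084.8 and 2602.4 in KO. The log2 change was -1.22 ± 0.34 (SE) at EB4 and -1.05 ± 0.34 at EB8. Within a library, the ratio of Gli3 to Gli1 per kilobase of exon at EB8 was 1.25 and 2.02 in WT versus 3.01 and 3.28 in KO, while in ES cells it was 0.332 and 0.208 in WT versus 0.0803 and 0.0672 in KO. At EB4 the order was opposite to that at EB8, with ratios of 1.83 and 5.00 in WT versus 0.719 and 0.544 in KO. At EB5 the WT ratios were 1.16 and 19.6 and the KO ratios 2.03 and 0.80, so that the groups overlapped and the ratio varied widely between replicates.

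Hhip, a membrane protein that binds and sequesters the ligands and is induced by signalling (ENSMUSG00000064325, chr8:82490014-82581905, reverse strand), changed order between genotypes. At ES it overlapped, at 30.0 and 161.1 normalised counts in WT versus 118.7 and 49.3 in KO. The KO libraries were above the WT libraries at EB4, with 44.4 and 68.9 against 6.6 and 15.0, and at EB5, with 304.3 and 214.3 against 139.3 and 121.9. At EB8 the WT libraries reached 600.7 and 694.6, and the KO libraries stood at 79.1 and 163.0. The KO minus WT log2 change was 2.36 ± 0.70 (SE) at EB4, 0.97 ± 0.70 at EB5 and -2.50 ± 0.70 at EB8. Over the genes of chromosome 8 as a whole, the first WT library lay above the second by 0.522 at EB4, 0.515 at EB5 and 0.486 at EB8 on the log2 scale. The part of this chromosome-wide difference in the Hhip values was not tested.

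Foxa2, a forkhead factor of the floor plate and of endoderm (ENSMUSG00000037025, chr2:147868613-147872705, reverse strand), was low in ES cells, at 13.7 and 5.6 normalised counts in WT versus 10.0 and 20.7 in KO. At EB4 the libraries held 57.0 and 51.5 in WT versus 161.2 and 28.1 in KO, with the KO libraries on either side of the WT libraries. At EB5 the WT libraries held 292.6 and 352.5 and the KO libraries stood at 15.2 and 6.8. At EB8 the WT libraries held 575.5 and 339.9 and the KO libraries 40.1 and 38.3. The log2 changes at EB5 and EB8 were -4.84 and -3.46, each ± 0.72 (SE). Foxa2 was thus apart at EB5, when Shh was still at 5.8 normalised counts or below in every library.

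Nkx2-2, a homeodomain factor of the most ventral neural progenitors (ENSMUSG00000027434, chr2:147003282-147019979, reverse strand), stayed low throughout. It ranged from 0.9 to 74.0 normalised counts in WT and from 0.0 to 22.9 in KO. At EB8 it held 8.4 and 27.5 in WT versus 0.0 and 4.3 in KO, a log2 difference of -2.84 ± 1.15 (SE). At EB4 its values were 9.9 and 74.0 in WT versus 16.4 and 6.4 in KO, so that the KO libraries fell on both sides of the lower WT library. At this depth its differences rest on few reads. Its exons overlap the opposite-strand gene Nkx2-2as, which was not analysed here.

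Set beside the same counts over all genes tested, the 9 genes stood as follows. All passed the filter on low values, a mean of at least 10 normalised counts, which left 16124 genes, and Shh passed only through WT EB8. At the adjusted p threshold of 0.05, no member passed at ES, where 0.0% of genes passed in all (0 of 16124 with limma and 0 with edgeR, 469 with DESeq2, and 1846 at an unadjusted limma p under 0.05). At EB4 the count was 1 (Smo), beside 6.12% of all genes, and at EB5 it was 2 (Smo and Foxa2), beside 4.34%. At EB8 it was 7, all members but Gli1 and Nkx2-2, and 6 of 8 without Shh. All 7 were lower in KO, beside 22.9% of all genes in either direction and 12.5% lower. Both KO libraries were below both WT libraries at EB8 for 9 of 9 members, beside 33.5% of all genes. The median log2 change of the members at EB8 was -2.03, against -0.03 over all genes tested. These counts describe genes chosen with such results known.

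Per kilobase of exon, which allows levels to be compared between genes, Smo and Ptch1 were the most abundant members in WT EB8, at 1309 and 1014 normalised counts per kilobase, followed by Gli3 at 502.5 and Gli1 at 324.4. Gli2, at 201.0, and Foxa2, at 193.1, were neighbours there with overlapping libraries, and Hhip (132.3), Shh (51.95) and Nkx2-2 (6.249) followed. In KO EB8 the order began with Ptch1 (535.1) and Smo (500.4), whose library values overlap, and ended with Foxa2 (16.55), Shh (1.575) and Nkx2-2 (0.741). In KO ES cells Gli1 stood first, at 903.7.

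**Figure D3:**
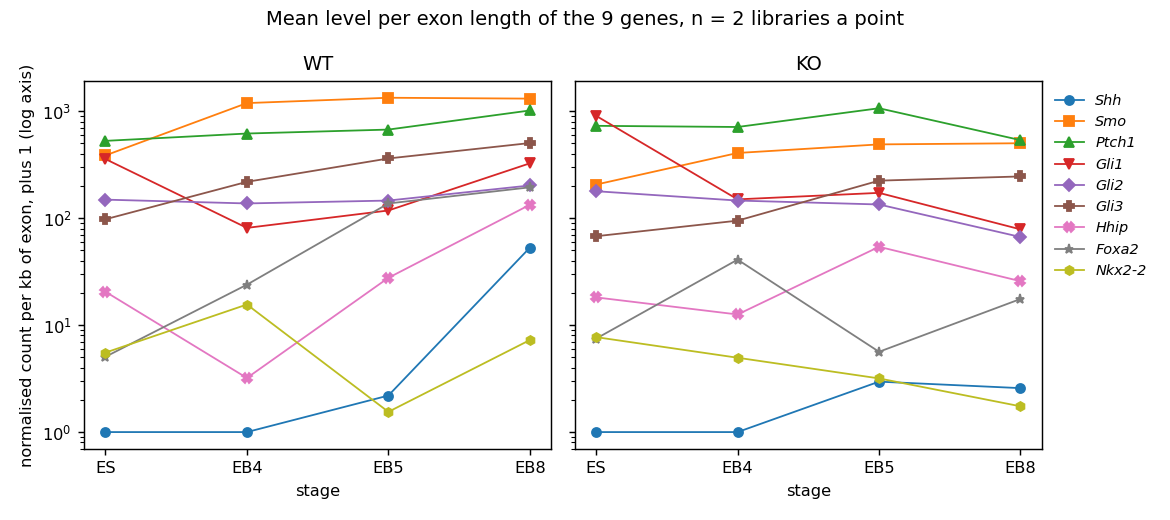
Mean normalised count per kilobase of exon, plus 1, on a logarithmic vertical axis, of the 9 genes at the 4 stages in WT (left) and KO (right), each point the mean of 2 libraries. In WT the Shh, Foxa2 and Hhip lines are at their highest at EB8, and in KO they end at 1.575, 16.55 and 24.73 normalised counts per kilobase.

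The other genes of the pathway were taken from a list of 40, of which 39 were in the table and 38 passed the filter. None passed at ES with limma (2 with DESeq2). At EB4 2 of the 38 passed, beside 6.12% of all genes, and at EB5 2 passed, beside 4.34%. Boc, a co-receptor that promotes ligand binding, was lower at both, by -1.81 ± 0.40 on the log2 scale at EB4 (limma adjusted p = 0.0241) and -1.62 ± 0.40 at EB5 (limma adjusted p = 0.0417). The other genes were Stk36, a kinase of the pathway, higher at EB4 by 0.88 ± 0.24 (limma adjusted p = 0.0477), and Spop, a ubiquitin ligase adaptor that acts on Gli factors, lower at EB5 by -0.90 ± 0.21 (limma adjusted p = 0.0347). Without any 1 of the EB4 libraries the count at EB4 was 0 or 1, and at EB5 it was 0 without either WT library or without the second KO library.

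At EB8 13 of the 38 fell and none rose, beside 22.9% of all genes in either direction and 12.5% lower in KO. The median log2 change of the list was -0.50, against -0.03 over all genes. By role, 1 of 2 ligands, 1 of 4 genes of ligand processing and release, 1 of 4 receptors and co-receptors, 6 of 15 cytoplasmic regulators, 1 of 8 ciliary genes and 3 of 5 targets passed the threshold. Gpr161, Evc2 and Kif7 were counted as cytoplasmic regulators though they act at the cilium, so these counts do not set ciliary genes apart.

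**Figure D4:**
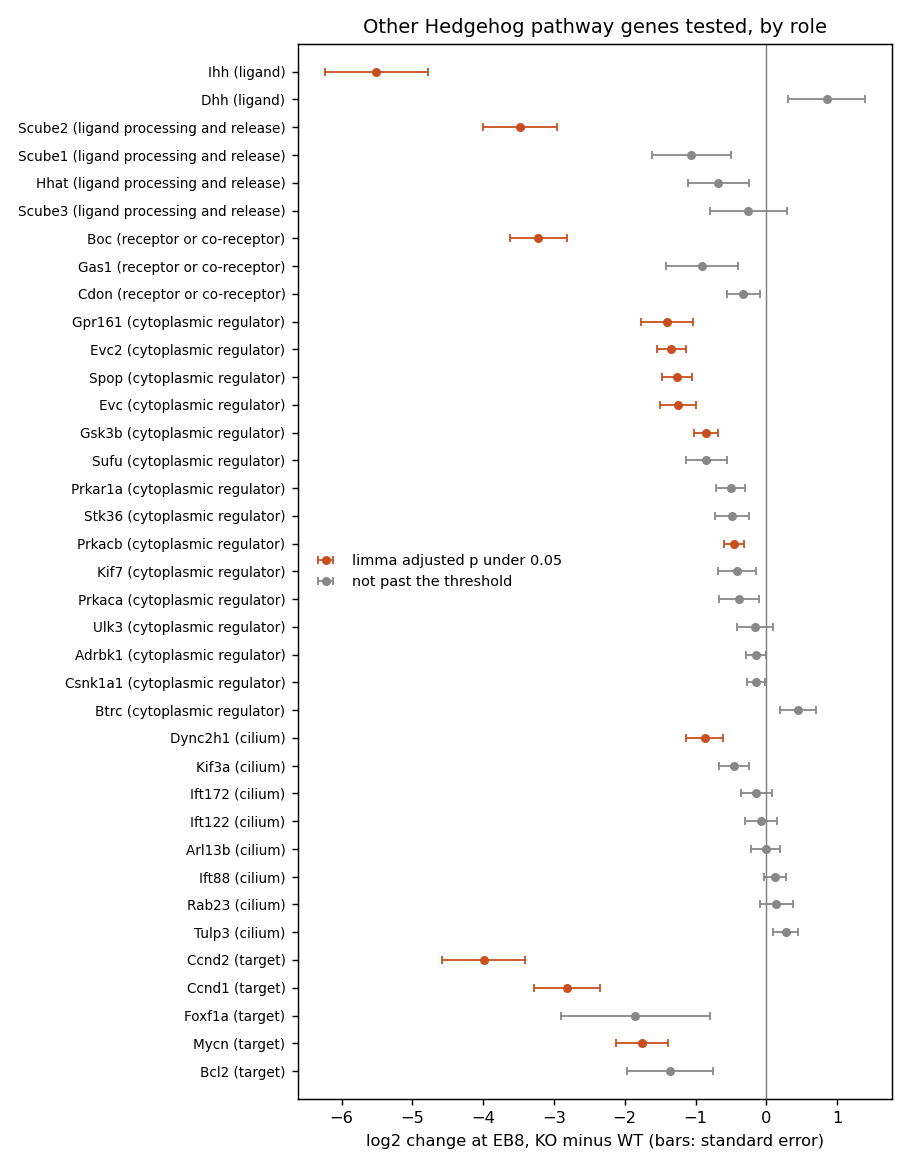
KO minus WT log2 change at EB8 (horizontal axis) of 37 of the 38 tested pathway genes other than the 9 members, grouped by role, with bars of 1 SE. The 13 genes with a limma adjusted p under 0.05 are in orange and all lie left of 0.

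Among the ligands, Ihh, which acts through the same receptor as Shh, followed a like course. It held 330.8 and 332.5 normalised counts in WT EB8 versus 5.3 and 7.5 in KO EB8, a log2 difference of -5.51 ± 0.72 (limma adjusted p = 0.000349), and at the earlier stages it was at most 15.1 in any library. Like Shh, Ihh passed the filter on low values only through WT EB8, with a mean of 7.3 normalised counts over the other 14 libraries, and without it 12 of 37 pathway genes were past the threshold. Dhh, the other ligand, held 7.4 and 8.5 in WT EB8 versus 21.1 and 10.7 in KO EB8 (limma adjusted p = 0.291). Scube2, which helps release lipid-bearing ligand, fell from 367.5 and 303.9 in WT to 26.4 and 32.0 in KO (log2 difference -3.48 ± 0.53, limma adjusted p = 0.00075).

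Of the co-receptors, Boc held 3056.9 and 3568.1 normalised counts in WT EB8 versus 386.2 and 321.7 in KO EB8 (log2 difference -3.22 ± 0.40, limma adjusted p = 0.000245). The changes of Cdon, at -0.32 ± 0.24 (limma adjusted p = 0.351), and Gas1, at -0.91 ± 0.50 (limma adjusted p = 0.217), did not pass the threshold. Gas1 reached 7270.0 and 8461.7 in WT EB8 versus 6329.3 and 2754.7 in KO EB8.

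Of the cytoplasmic regulators, Gpr161, a ciliary receptor that restrains the pathway, fell by 1.40 ± 0.37 on the log2 scale (limma adjusted p = 0.0159). Evc2, which binds active Smo at the base of the cilium, fell by 1.34 ± 0.20 (limma adjusted p = 0.000716). The negative regulators Sufu, which holds Gli factors in the cytoplasm, and Kif7, a kinesin of the cilium tip, did not pass the threshold, with log2 changes of -0.85 ± 0.29 (limma adjusted p = 0.0563) and -0.42 ± 0.27 (limma adjusted p = 0.285).

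The targets that fell at EB8 were the cell cycle genes Ccnd2 and Ccnd1 and the growth regulator Mycn, which other pathways also control. Ccnd2 held 40499.8 and 31206.3 normalised counts in WT EB8 versus 1863.2 and 2700.4 in KO EB8 (log2 difference -3.99 ± 0.59, limma adjusted p = 0.000665). Ccnd1 fell by 2.82 ± 0.47 on the log2 scale (limma adjusted p = 0.00134) and Mycn by 1.75 ± 0.37 (limma adjusted p = 0.00528). These 3 were also the list genes whose KO minus WT difference changed from EB4 to EB8 in the interaction test, by -4.71 for Ccnd2 (limma adjusted p = 0.0129), -3.01 for Ccnd1 (limma adjusted p = 0.032) and -2.16 for Mycn (limma adjusted p = 0.0475), beside 2.75% of all genes. Without any 1 library of EB4 or EB8 the count in this test ran from 0 to 3.

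Within WT, 7 of the 38 pathway genes passed between ES and EB4 (16.5% of all genes did), 4 between EB4 and EB5 (3.73%) and 11 between EB5 and EB8 (10.4%), of which 10 rose. Ihh, among the 10, passed the filter on low values only through WT EB8. Within KO the counts were 1 (3.5%), 3 (2.51%) and 2 (0.738%). Adjacent steps share a group of libraries, and the KO against WT differences use the same libraries again.

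Floor plate and ventral neural tube genes other than the members were taken from a list of 18, of which 17 were in the table and 15 were tested. At EB8 6 fell and 1 rose, beside 22.9% of all genes, and the median log2 change was -1.67. Foxa1, a close relative of Foxa2 that is also made in endoderm, held 1563.6 and 1037.6 normalised counts in WT versus 194.1 and 216.2 in KO (log2 difference -2.63 ± 0.38, limma adjusted p = 0.000584). At EB5 Foxa1 held 354.8 and 494.2 in WT versus 348.0 and 304.5 in KO (log2 difference -0.36 ± 0.38, limma adjusted p = 0.625). Spon1, an extracellular protein of the floor plate, was lower at EB8 by -2.98 ± 0.80 (limma adjusted p = 0.0181). It had already been lower at EB4, by -3.56 ± 0.80 (limma adjusted p = 0.0256), and EB5, by -3.09 ± 0.80 (limma adjusted p = 0.0492). Unlike Foxa1, Spon1 was highest in WT at EB4, before retinoic acid, at 2323.5 and 3759.5 normalised counts. At EB8 it held 761.3 and 218.1 in WT versus 32.7 and 78.8 in KO.

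Ntn1, the axon guidance cue Netrin-1, changed order as Ptch1 and Hhip did. It was higher in KO at EB4, at 2946.3 and 1470.1 normalised counts against 384.7 and 807.4 in WT (log2 difference 1.90 ± 0.42, limma adjusted p = 0.0249), and lower at EB8, at 785.0 and 577.4 against 2321.8 and 1977.8 (log2 difference -1.67 ± 0.42, limma adjusted p = 0.0137). The ventral homeodomain genes Nkx6-1 (122.9 and 52.9 in WT EB8, 4.2 and 5.3 in KO EB8) and Nkx6-2 fell, with log2 changes of -3.83 ± 1.02 (limma adjusted p = 0.018) and -2.76 ± 0.89 (limma adjusted p = 0.0411). Sim1, made by the most ventral interneurons, fell by 3.43 ± 0.84 (limma adjusted p = 0.0115). Nkx6-1 and Sim1 passed the filter only through WT EB8, with means of 4.5 and 6.2 normalised counts over the other 14 libraries. Of the 12 listed genes that did not depend on WT EB8 to be tested, 4 fell and 1 rose. Nkx2-9, a relative of Nkx2-2, was the gene that rose, with 63.3 and 72.4 normalised counts in KO EB8 and 21.0 and 11.6 in WT EB8 (log2 difference 2.04 ± 0.56, limma adjusted p = 0.0198). Leaving out 1 EB8 library at a time left 2 or 3 of these 7 calls, and Foxa1 was the one kept in all 4 fits. The rise of Nkx2-9 was lost without the second WT library, without either KO library, and in a fit of the compared groups alone. At EB4 3 genes of the list passed, beside 6.12% of all genes, namely Spon1, Ntn1 and Slit2, an axon guidance ligand that was higher in KO (log2 difference 1.57 ± 0.41, limma adjusted p = 0.0457). The EB4 count was 0 without the first WT or the second KO library, 1 without the first KO library and 0 in the compared groups alone. At EB5 Spon1 and Slit1 (log2 difference -2.24 ± 0.57, limma adjusted p = 0.0457) passed, beside 4.34% of all genes, and the count was 0 or 1 without 1 library.

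Markers of other cells moved between genotypes at the same stages. Over all genes tested, 22.9% passed at EB8 in either direction and 12.5% passed as lower in KO. The summed level of 7 pluripotency genes was 1382 to 1766 normalised counts in the WT EB8 libraries and 24620 to 27780 in the KO EB8 libraries, and 6 of the 7 rose. The sum of 6 neural progenitor genes was 31760 to 33450 in WT EB8 and 8807 to 11490 in KO EB8, and 4 of the 6 fell. Fabp7, among the 4, passed the filter on low values only through WT EB8, with at most 17.2 normalised counts in any other library. Of 11 dorsal neural tube genes tested, 5 fell at EB8, among them Msx3 (log2 difference -8.20, limma adjusted p = 4.27e-05) and Pax3 (-4.76, limma adjusted p = 0.00011). Their part in the differences of the ventral genes was not tested.

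Endoderm and notochord also express Foxa2, and endoderm Ihh. A list of 12 endoderm genes, which includes Foxa1 and Foxa2, summed to 2792 to 3803 normalised counts in WT EB5 and 1468 to 2220 in KO EB5, and to 4375 to 4765 in WT EB8 and 1672 to 1679 in KO EB8. Of its 7 genes tested besides Foxa2, none passed at EB5, beside 4.34% of all genes. At EB8 3 fell, namely Sox17, Foxa1 and Cxcr4, beside 12.5% of all genes lower in KO. Sox17 held 325.6 and 957.6 normalised counts in WT EB5 versus 165.0 and 46.5 in KO EB5 (limma adjusted p = 0.11). Of 7 notochord and node genes, Shh and Foxa2 among them, the sum was 757.0 to 866.3 in WT EB8 and 275.9 to 318.6 in KO EB8, while the 5 genes of that list other than Shh and Foxa2 summed to 186.9 and 241.4 in WT EB8 versus 274.3 and 233.3 in KO EB8, so that the fall in the sum lay in those members. None of the 4 others tested passed, their median log2 change at EB8 was 0.79, and Noto was at 1.9 or below in every library. The feeder fibroblast list of 7 genes summed to 1033 to 2650 in WT ES and 209.2 to 493.9 in KO ES. The part of these other cells in the values of the 9 genes was not tested.

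Likeness to each member was measured by Pearson's r over the 8 group means of log2(normalised count + 1) among the genes tested, as a description of points that share libraries. The 3 genes most like Shh were Ptf1a (r = 0.991), Dusp23 (0.984) and Prmt8 (0.984). Those most like Smo were Satb1 (0.994), Pde3b (0.992) and AI314180 (0.992), and the first for Gli3 and Hhip were Vipr2 (0.996) and Olig3 (0.974). For Foxa2 the first was Gm20457 (0.965), for Gli1 Tspyl2 (0.976), for Gli2 SNORA71 (0.970), for Nkx2-2 Ddx19b (0.934), and for Ptch1 Phkg2 (0.902), the lowest first value among the 9. Among the members themselves r was highest for Smo with Gli3 (0.877) and Shh with Hhip (0.828), and lowest for Smo with Gli1 (-0.617).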

How the data were processed

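RNA from the 16 libraries (8 groups of 2, grouped by the genotype and stage in the sample titles) was prepared by the authors from polyadenylated RNA, sequenced as single-end reads, aligned to mm9 and counted per gene. The submitters' processing notes name TopHat2 2.0.10, HTSeq 0.5.4p3, DESeq2 1.0.19 and CASAVA 1.7 and 1.8. The annotation release and the strand setting are not given in the sources used here. The deposited values are a normalised read count signal for 27807 genes, each count divided by a size factor of its library. In every library all values were whole multiples of a step of 0.715 to 1.28, within a tolerance of 0.001 times the number of steps. High counts pass such a tolerance whatever their value, so the check rests on low counts. Whole reads, and thus depth, were recovered by rounding. The floor of 3 reads covers counting error only, whereas each SE comes from the spread between libraries.

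Gene identifiers were looked up in GENCODE M1 (27603 matched, 204 not). The 16124 genes whose mean reached 10 normalised counts were tested with limma 3.58.1 in R 4.3.3 on log2(normalised count + 1), with 8 group means, a trend in eBayes, 8 residual degrees of freedom and Benjamini-Hochberg adjustment over all genes tested. Alternatives used edgeR 4.0.16 and DESeq2 1.42.0 on recovered reads, other pseudocounts, filters and scalings, replicate blocks and leaving out each library. The limma fit was tested on simulated counts, for KO against WT at EB8 only. The simulated libraries were independent with a fixed spread, and changes were placed only in genes well above the filter. Changes in genes near the filter were therefore not covered. The p-values rest on the spread between the 2 libraries of a group, pooled over all 8 groups and drawn toward a trend over all genes. They do not measure the spread of the compared groups alone.

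The 9 genes and all lists were chosen with earlier results of these data known. All 9 are named, and of each list at most the 8 largest changes past the threshold per comparison, plus Dhh, Ihh, Boc, Cdon, Gas1, Sufu and Kif7, and of the 3 genes most like each member the first, with all 3 for Shh and Smo. Other genes named (Noto, Olig3 as a neighbour, Foxa1 and Sox17 at EB5, and the genes overlapping exons) were given for completeness after their values were seen. For 2 listed genes single values are not reported here.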

Additional observations from a re-analysis of the deposited data

Results flagged for a closer look

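The KO minus WT difference changed between EB4 and EB8, by the interaction test of limma, for 4 genes of the pathway and floor plate lists. Of all genes tested, 2.75% passed. Genes of the dorsal (Msx3, Pax7, Pax3), neural progenitor (Fabp7, Sox3) and pluripotency (Nanog, Pou5f1, Esrrb) lists also passed. Of these, Fabp7 passed the filter on low values only through WT EB8. For the first 4 the change on the log2 scale was -4.71 for Ccnd2, -3.01 for Ccnd1, -2.16 for Mycn and -3.57 for Ntn1 (limma adjusted p = 0.0105 for Ntn1).

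Ptch1, Gli1 and Gli2 moved in opposite directions in the 2 genotypes. Both WT libraries at EB8 were above both WT libraries at EB4, and both KO libraries at EB8 were below both at EB4. The KO minus WT log2 change differed between EB8 and EB4 by -1.14 for Ptch1, -3.07 for Gli1 and -1.79 for Gli2. In the same fit Ptch1 was past the threshold, as were Shh and Hhip, and Gli1 and Gli2 were not, which is given as a description since these genes were chosen with such values known.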

How the results depend on the processing

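The EB8 counts of pathway genes (13; 9 to 11 with 1 library left out) and of members (7; 5 to 6) were within 1.5 times under every alternative run, and no value past the threshold changed sign. Of 396 values of single members under alternatives, 13 changed sign. All were values that had not passed the threshold, among them Hhip at ES (0.13, and -1.06 without the first WT library), Foxa2 at EB4 (0.32, and -0.92 without the first KO library) and Nkx2-2 at EB4 (-1.33, and 0.06 without the second WT library). Smaller counts moved, and the cause was not tested.

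Pathway genes past the threshold at ES were 0, and 2 with DESeq2. At EB4 they were 2, with 1 at a pseudocount of 5, without the filter and with edgeR, 0 in a fit of the compared groups alone, 7 with DESeq2 and 0 to 1 leaving out 1 library. At EB5 they were 2, with 0 without the filter and in the compared groups alone, 7 with DESeq2 and 0 to 3 leaving out 1 library. In the EB8 against EB4 interaction they were 3, with 5 at a pseudocount of 5 and under quantile normalisation, 8 with DESeq2 and 0 to 3 leaving out 1 library. Floor plate genes at EB5 were 2, with 0 at a pseudocount of 0.1, without the filter, in the compared groups alone and with edgeR, 1 under upper-quartile rescaling, 4 with DESeq2 and 0 to 1 leaving out 1 library. At EB8 they were 7, with 6 without the filter, 5 at a mean of at least 50 and 2 to 3 leaving out 1 library. At EB4, with alternatives added after seeing the data, they were 3, with 0 in the compared groups alone, 5 with DESeq2 and 0 to 4 leaving out 1 library. Members past the threshold at ES were 0, and 1 with DESeq2. At EB4 they were 1, with 0 in the compared groups alone, 3 with DESeq2 and 0 to 1 leaving out 1 library. At EB5 they were 2, with 1 in the compared groups alone and 0 to 3 leaving out 1 library (0 without the second WT or the second KO library). The median log2 change of the members at EB8 was -2.03, with -1.62 at a pseudocount of 5 and -2.13 to -1.64 leaving out 1 library. Where a library was left out, the lone library of its group was assumed to vary like the other groups.

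Replicate numbers did not pair libraries across genotypes at the EB stages. The replicate differences of WT and KO at the same stage correlated across genes at 0.335 at ES, -0.0575 at EB4, -0.209 at EB5 and -0.133 at EB8. Those of WT ES also correlated with KO EB4 (0.281) and KO EB5 (0.368), and less with KO EB8 (0.0563). Within a genotype the numbers tracked each other between the EB stages of WT (0.523 to 0.605) and between all KO stages (0.233 to 0.422), but not between WT ES and the later WT stages (-0.179 to -0.048). No label ties a number to a line, and the fit with 8 residual degrees of freedom, the stage comparisons included, takes the libraries as independent. With a replicate block the interaction count was 5, and with a replicate block within genotype it was also 5. That second block gave 5 pathway genes, 5 floor plate genes and 3 members at EB4 and 7 pathway genes at EB5. With the KO numbers exchanged, an alternative chosen after seeing the data, the replicate block gave 4 pathway genes at EB4 and at EB5, and 2 members at EB4. Over all genes, calls at EB4 were 986 with limma, 2077 with DESeq2 and 0 in the compared groups alone, and at EB5 700, 1719 and 72. At EB8 3697 genes passed, 1677 higher and 2020 lower in KO, and upper-quartile rescaling, which moved the median over all genes to 0.11 on the log2 scale, gave 2278 higher and 1615 lower. Depth limits Shh outside WT EB8 and Nkx2-2 throughout.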
